A study of Rattus norvegicus with 28 samples.

Results

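Genes that carry calcium and magnesium out of the tubular fluid, and genes of the hormones that set that transport, were followed in whole kidneys of female rats. The 10 members were listed by gene symbol (Casr, Cldn16, Calb1, Slc8a1, Trpv5, Trpm6, Vdr, Cyp24a1, Cyp27b1 and Kl), and a probe set was counted as a member when the array's platform annotation gave it 1 of these symbols. That rule found 10 probe sets for 8 of the 10 genes, among 31042 probe sets and 14217 named genes in all. Slc8a1 and Trpv5 had 2 probe sets each. No probe set carried the name Trpm6 or Cyp24a1, and these 2 genes were not analysed here.

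The study crossed 2 rat strains with the number of kidneys. SBH/y and SBN/y are known as the Sabra lines that develop and that resist salt-sensitive hypertension, and the series concerns the origin of urinary protein loss. The groups were SBH/y with 1 kidney after right uninephrectomy, SBH/y with 2 kidneys after a sham operation, SBN/y with 1 kidney after right uninephrectomy, and SBN/y with 2 kidneys after a sham operation. Each held 7 arrays from females killed at 5 months of age, 4 months after surgery, that were fed ordinary chow. The labels do not say whether each array came from its own animal, so the p-values speak for the spread among arrays, which may be technical.

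Filtered calcium returns to the blood along several tubule segments. In the thick ascending limb it passes between cells through pores built by claudins, and the calcium-sensing receptor lowers this flow when blood calcium is high. In the distal convoluted and connecting tubule it enters cells through the channel Trpv5, is ferried by the binding protein calbindin-D28k, and leaves by the sodium-calcium exchanger Slc8a1 and by calcium pumps. Parathyroid hormone and active vitamin D raise this transcellular route, and Klotho, the co-receptor for the bone hormone FGF23, links it to phosphate excretion.

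All values are the deposited log2 intensities, in which a difference of 1 unit stands for a factor of 2 on the array's scale. A gene was called in a comparison when limma's p, adjusted by the Benjamini-Hochberg method over all 31042 probe sets, was below 0.05. The array medians lay between 5.72 and 5.77, and arrays correlated with each other at 0.9855 to 0.9975 over all probe sets. Calb1, with a mean of 11.56 over all arrays, lay above 99.0% of probe sets. Slc8a1 lay above 90.9%, Casr above 81.6%, Cldn16 above 72.8%, Kl above 69.8% and Vdr above 62.0% of them. Cyp27b1 and the brighter Trpv5 probe set had means of 5.43 each, below the lowest array median, so a missing call there does not show that their RNA was unchanged. Kidney origin was borne out by uromodulin, Umod, the main urinary protein of the thick ascending limb, at 13.14 to 13.43 on every array. Of the distal tubule markers, the sodium chloride cotransporter Slc12a3 lay at 8.32 to 9.19, but parvalbumin, Pvalb, lay at 3.53 to 3.94, below the medians on all arrays. Parathyroid hormone, Pth, which would mark parathyroid tissue, lay at 2.91 to 3.41.

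RefSeq promoter sequences were found for 7 of the 8 measured members, Calb1 being the one without. For Casr, Slc8a1 and Trpv5 the window lay inside the annotated gene, past its outermost start, so it may not be the promoter in use, and these are not shown. Of the 4 windows that end at the gene's outermost start, those of Cldn16, Vdr and Kl are shown, because these genes were called for kidney number or in both strain comparisons. Each is the 250 bases before the RefSeq transcription start, 5′ to 3′, and capitals mark motif matches on either strand. The motifs were AGGTCA and its variant GGTTCA, the further variants spelled AGTTCA and also GGGTCA, all half-sites of nuclear receptors such as the vitamin D receptor, besides the cyclic AMP element TGACGTCA, then the E-box with the letters CACGTG, and the GC box, which reads GGGCGG.
Cldn16 (GRCr8, chr11:87814397-87814646, minus strand): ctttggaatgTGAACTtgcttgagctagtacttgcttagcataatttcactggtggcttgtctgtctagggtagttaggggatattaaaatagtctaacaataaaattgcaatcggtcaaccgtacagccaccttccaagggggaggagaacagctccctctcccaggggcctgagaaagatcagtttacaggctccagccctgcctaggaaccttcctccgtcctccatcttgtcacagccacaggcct
Vdr (GRCr8, chr7:130916758-130917007, minus strand): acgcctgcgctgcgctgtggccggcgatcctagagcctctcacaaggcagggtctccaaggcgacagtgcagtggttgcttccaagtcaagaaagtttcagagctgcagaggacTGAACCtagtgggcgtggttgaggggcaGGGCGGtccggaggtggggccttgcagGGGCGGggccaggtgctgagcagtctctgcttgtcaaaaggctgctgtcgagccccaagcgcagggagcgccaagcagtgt
Kl (GRCr8, chr12:5325753-5326002, plus strand): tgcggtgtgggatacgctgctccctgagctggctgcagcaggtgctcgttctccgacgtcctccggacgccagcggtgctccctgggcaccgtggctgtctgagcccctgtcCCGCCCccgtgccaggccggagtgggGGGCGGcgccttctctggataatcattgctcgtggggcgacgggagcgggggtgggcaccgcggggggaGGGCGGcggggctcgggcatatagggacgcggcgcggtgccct

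The Cldn16 window held 1 half-site, AGTTCA read on the other strand, which 12.22% of 33469 RefSeq promoter windows of the same length also held. The Vdr window held 1 GGTTCA half-site, found in 9.77% of windows, and 2 GC boxes. Kl had 3 GC boxes, a motif present in 30.47% of windows, and no half-site. The full vitamin D response element, a direct repeat with 3 bases between the repeats, was matched in 0 of the 7 member windows, the 3 inside genes included, and in 0.31% of all windows. The cyclic AMP element and the E-box were matched in 0 of the 7 as well, against 1.59% and 5.59% of all windows, and the marked matches do not overlap each other. AGGTCA and GGGTCA, found in 14.06% and 11.86% of all windows, were in none of the 3 windows shown, and the Cyp27b1 window held 1 GGTTCA. These matches describe letters within a short window and say nothing of whether a factor binds there.

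The first question was whether these genes differ between the strains. A set of 5 of the 8 genes was lower in SBH/y whether 1 or 2 kidneys were present: Casr, Cldn16, Calb1, Slc8a1 and Kl. With 1 kidney, 5 of 8 were called, 0 higher and 5 lower, where 21.5% of all probe sets were called in this comparison. With 2 kidneys, 6 of 8 were called, 1 higher and 5 lower, where 17.9% of all probe sets were called. The members were chosen with earlier results of these data known. Counts above these shares therefore do not show that calcium genes differed more than others. The median log2 difference of the 8 genes was -0.49 with 1 kidney and -0.49 with 2 kidneys, against medians over all probe sets of -0.01 and -0.02.

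Casr encodes the calcium-sensing receptor, which in the kidney acts mainly in the thick ascending limb. With 1 kidney its lowest, median and highest values were 7.25, 7.39 and 7.50 in SBH/y, against 8.50, 8.79 and 8.87 in SBN/y. With 2 kidneys they were 7.35, 7.54 and 7.59 in SBH/y, against 8.42, 8.66 and 8.80 in SBN/y. No SBH/y array reached the lowest SBN/y array of either state, and the gap between them was wider than the range within any group. Of all probe sets, 4.21% were lower in SBH/y without overlap with 1 kidney and 3.17% with 2 kidneys. The log2 difference was -1.37 ± 0.06 (SE, n = 7 each) with 1 kidney, a change of -61.3% on the linear scale, with an adjusted p of 1.11e-17 in limma. It was -1.12 ± 0.06 with 2 kidneys, a change of -53.9%, with an adjusted p of 1.95e-15 in limma. Among the 8 genes this was the largest difference in both states.

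Cldn16 encodes claudin-16, which with claudin-19 forms the cation-selective pore of the thick ascending limb tight junction, and its loss in humans wastes magnesium and calcium in the urine. Its lowest, median and highest values with 1 kidney were 7.14, 7.22 and 7.36 in SBH/y, against 7.58, 7.73 and 7.86 in SBN/y. With 2 kidneys they were 6.94, 7.06 and 7.13 in SBH/y, against 7.42, 7.48 and 7.65 in SBN/y. The strains did not overlap in either state, as for 4.21% of all probe sets in this direction with 1 kidney and 3.17% with 2 kidneys. The log2 differences were -0.47 ± 0.05 with 1 kidney and -0.46 ± 0.05 with 2 kidneys, with adjusted p of 5.51e-09 and 1.12e-08 in limma. Its partner Cldn19 did not share this direction: it was higher in SBH/y with 1 kidney, by 0.29 ± 0.07 (adjusted p 0.00266 in limma), and differed by 0.19 ± 0.07 with 2 kidneys, which was not called. Cldn19 was singled out after its values were seen, as the partner of claudin-16.

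Calb1 encodes calbindin-D28k, the cytosolic calcium carrier of the distal convoluted and connecting tubule. With 1 kidney the values in SBH/y ran from 11.03 through a median of 11.33 to 11.48, against 12.17, 12.29 and 12.43 in SBN/y. With 2 kidneys they ran from 10.60 through 10.86 to 11.14 in SBH/y, against 11.11, 11.85 and 12.06 in SBN/y. The strains were apart with 1 kidney, as for 4.21% of all probe sets in this direction. With 2 kidneys SBN/y replicate 2, at 11.11, lay inside the range of SBH/y, and 6 of 7 SBH/y arrays lay below all of SBN/y. The log2 difference was -1.02 ± 0.11 with 1 kidney and -0.86 ± 0.11 with 2 kidneys, with adjusted p of 7.47e-09 and 2.46e-07 in limma.

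Slc8a1, the sodium-calcium exchanger of the basolateral membrane, was read by 2 probe sets. The brighter lay with 1 kidney at 8.79 to 9.12 in SBH/y (median 8.87), against 9.45 to 9.78 in SBN/y (median 9.61). With 2 kidneys it lay at 8.17 to 8.63 in SBH/y (median 8.50), against 9.00 to 9.33 in SBN/y (median 9.18). In neither state did the strains overlap, a separation that 4.21% of all probe sets showed in this direction with 1 kidney and 3.17% with 2 kidneys. The differences were -0.72 ± 0.07 with 1 kidney and -0.70 ± 0.07 with 2 kidneys (adjusted p 2.09e-09 and 4.03e-09 in limma). The dimmer probe set, with a mean of 5.33 over all arrays, gave -0.63 ± 0.11 and -0.61 ± 0.11 and was called in both states, with adjusted p of 7.77e-05 and 0.000162 in limma. The 2 probe sets thus gave strain differences of like size and sign. The dimmer one was apart with 1 kidney, at 4.68 to 5.34 in SBH/y, against 5.45 to 5.97 in SBN/y. With 2 kidneys it overlapped, at 4.59 to 5.20 in SBH/y, against 4.94 to 5.85, with 3 of 7 SBH/y arrays below all of SBN/y. All its SBH/y values lay below the lowest array median of 5.72.

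Kl encodes Klotho, made in the distal convoluted tubule and also in the proximal tubule. With 1 kidney its lowest, median and highest values were 6.74, 6.81 and 7.12 in SBH/y, against 7.08, 7.21 and 8.31 in SBN/y. With 2 kidneys they were 6.59, 6.90 and 7.27 in SBH/y, against 6.84, 7.44 and 7.73 in SBN/y. The strains overlapped in both states, although all 7 SBH/y arrays lay below the SBN/y median each time. The log2 differences were -0.51 ± 0.15 and -0.51 ± 0.15, changes of -29.6% and -30.0% on the linear scale, with adjusted p of 0.0116 and 0.0127 in limma. The highest SBN/y array with 1 kidney, replicate 5, contributed to the first value, which was -0.36 without it and still called. The SD of Kl within a group was 0.15 to 0.44, against 0.08 to 0.13 for Casr.

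Cyp27b1 encodes the 1-alpha-hydroxylase that makes active vitamin D. It was the 1 gene of the 8 called higher in SBH/y, with 2 kidneys. There its values ran from 5.20 through 5.67 to 5.80 in SBH/y, against 5.05, 5.25 and 5.58 in SBN/y, with 4 of 7 SBH/y arrays above all of SBN/y. The log2 difference was 0.29 ± 0.08 (adjusted p 0.0152 in limma), and the adjusted p was 0.0606 when the 2 groups were fitted alone. This call rests on dim values, with a mean over all arrays of 5.43, below the lowest array median of 5.72. With 1 kidney Cyp27b1 differed by 0.09 ± 0.08, which was not called, and the change of the strain difference was not called either (-0.20 ± 0.12, adjusted p 0.567 in limma). Vdr, the vitamin D receptor, differed by -0.19 ± 0.10 with 1 kidney and by 0.22 ± 0.10 with 2 kidneys, neither called (adjusted p 0.166 and 0.122 in limma). Trpv5, the apical calcium entry channel, differed by 0.10 ± 0.09 and -0.20 ± 0.09 on its brighter probe set, neither called (adjusted p 0.480 and 0.127 in limma). The dimmer Trpv5 probe set lay at 3.43 to 3.97 over all 28 arrays, and its differences were -0.03 and -0.09.

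**Figure D1:**
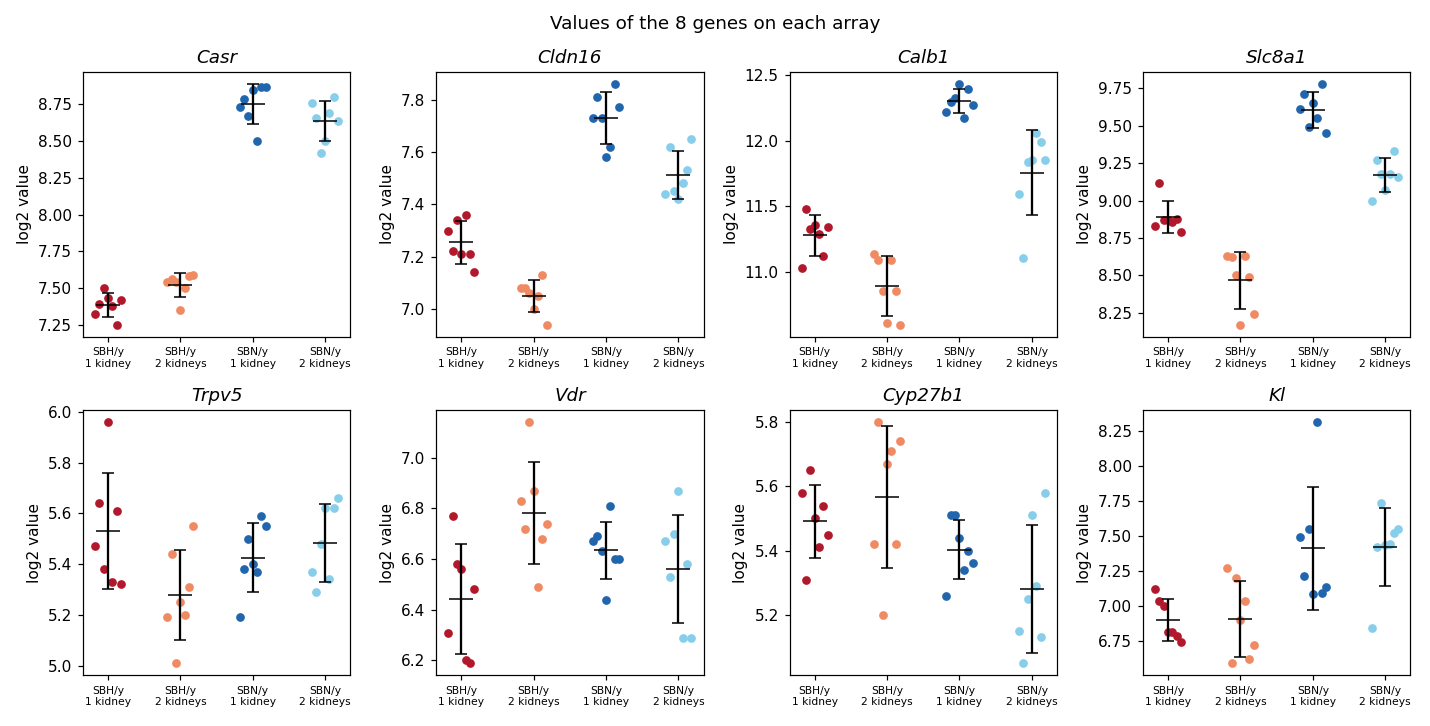
Log2 value of each gene on each array, by strain and kidney number, for the brighter probe set of each gene. Points are arrays, the horizontal mark is the mean and the bar the SD of 7 arrays; the axes differ between panels and do not start at 0. At equal kidney number SBH/y lies below SBN/y without overlap in Casr, Cldn16 and Slc8a1, and in Kl a single SBN/y array with 1 kidney stands at 8.31. Over all probe sets, 4.21% lie lower without overlap with 1 kidney and 3.17% with 2 kidneys.

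A strain difference read by an array can reflect RNA or sequence variants under the probes, and for the single probe sets of Casr, Cldn16, Calb1 and Kl these cannot be told apart here. Slc8a1 had a further probe set, but a dim one with a mean of 5.33, and variants under the probes of Slc8a1 were not tested. In whole kidney, fewer cells of a type and less RNA per cell cannot be told apart either. Of all named genes, 26.8% were called between the strains with 1 kidney and 21.5% with 2 kidneys. Of 6 thick ascending limb markers, 4 were lower and 1 higher in SBH/y with 1 kidney, and 3 were lower and 0 higher with 2 kidneys. Their mean log2 level lay at 10.17 to 10.31 in SBH/y, against 10.36 to 10.59 in SBN/y, with 1 kidney, and at 10.20 to 10.32 in SBH/y, against 10.17 to 10.44 in SBN/y, with 2 kidneys. Among 6 markers of the distal convoluted to connecting segments, SBH/y had 3 called lower with 1 kidney, 2 called lower with 2 kidneys and 0 called higher. Their mean level lay at 6.55 to 6.73 in SBH/y, against 6.86 to 7.04 in SBN/y, with 1 kidney, and at 6.58 to 6.86 in SBH/y, against 6.78 to 6.95 in SBN/y, with 2 kidneys. Umod differed by -0.00 and 0.06, neither called. Collecting duct markers were lower in SBH/y in 3 of 6 with 1 kidney and 4 of 6 with 2 kidneys, and macrophage markers were higher in 6 of 6 and 5 of 6. The macrophage mean lay at 8.54 to 8.94 in SBH/y, against 7.95 to 8.13 in SBN/y, with 1 kidney, and at 8.50 to 8.81 in SBH/y, against 7.99 to 8.28 in SBN/y, with 2 kidneys. With 1 kidney podocyte markers were lower in SBH/y in 5 of 5, and proximal tubule and injury markers were each higher in 3 of 6 and lower in 0. With 2 kidneys podocyte markers were higher in 1 of 5, proximal tubule markers higher in 1 of 6, and injury markers higher in 1 and lower in 1 of 6. The proximal tubule mean lay at 11.64 to 11.77 in SBH/y, against 11.45 to 11.64 in SBN/y, with 1 kidney, and at 11.67 to 11.73 in SBH/y, against 11.57 to 11.73 in SBN/y, with 2 kidneys. Perirenal fat markers in SBH/y were higher in 1 and lower in 0 of 6 with 1 kidney, and higher in 0 and lower in 2 with 2 kidneys. Among them Ucp1 averaged 5.48 in SBH/y, against 8.23 in SBN/y, with 2 kidneys (adjusted p 1.99e-06 in limma). The part of cell content, fat included, in the strain differences was not tested.

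The second question was how the genes respond when a single kidney has to do the work. Calb1, Slc8a1 and Cldn16 rose after uninephrectomy in SBH/y and in SBN/y. In SBH/y 4 of 8 genes were called, 3 higher and 1 lower, where 8.24% of all probe sets were called. In SBN/y 3 of 8 were called, all higher, where 0.464% of all probe sets were called. That share rests on 144 calls, a number that ranged from 62 (without SBN/y replicate 7 with 1 kidney) to 167 when 1 array was left out. Averaged over the strains, 3 of 8 were called, again the same 3 genes and all higher, against 6.52% of all probe sets. Because the members were chosen with earlier results of these data known, these counts too are no evidence of enrichment. The median log2 difference of the 8 genes was 0.10 in SBH/y and 0.12 in SBN/y, against 0.01 and 0.00 over all probe sets.

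Slc8a1 was separated by kidney number in both strains. In SBH/y its 7 arrays with 1 kidney lay at 8.79 to 9.12, all above the 8.17 to 8.63 of those with 2 kidneys. In SBN/y the ranges were 9.45 to 9.78 with 1 kidney, against 9.00 to 9.33 with 2 kidneys, again without overlap. In that direction 0.883% of all probe sets were separated in SBH/y and 0.229% in SBN/y. The rise was 0.42 ± 0.07 in SBH/y and 0.44 ± 0.07 in SBN/y, 33.7% and 35.4% on the linear scale, with adjusted p of 0.000191 and 0.00434 in limma. The dimmer probe set differed by 0.16 ± 0.11 and 0.18 ± 0.11, positive in both strains and not called in either.

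Calb1 in SBH/y lay at 11.03 to 11.48 with 1 kidney, against 10.60 to 11.14 with 2 kidneys, with 5 of 7 arrays above all of the 2-kidney group. In SBN/y it lay at 12.17 to 12.43 with 1 kidney, against 11.11 to 12.06 with 2 kidneys. There the groups did not overlap, as for 0.229% of all probe sets in this direction. The rise was 0.38 ± 0.11 in SBH/y and 0.54 ± 0.11 in SBN/y, 30.5% and 45.7% on the linear scale (adjusted p 0.0213 and 0.0152 in limma). The call in SBH/y was lost without SBH/y 2-kidney replicate 4 or 7, the lowest arrays, where the rise was at least 0.33 and the adjusted p at most 0.0561.

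Cldn16 in SBH/y lay at 7.14 to 7.36 with 1 kidney, against 6.94 to 7.13 with 2 kidneys. These groups did not overlap, as for 0.883% of all probe sets in this direction. In SBN/y it lay at 7.58 to 7.86 with 1 kidney, against 7.42 to 7.65 with 2 kidneys, and 5 of 7 arrays were above all of the 2-kidney group. The rise was smaller than that of the other 2 genes, 0.21 ± 0.05 in SBH/y and 0.22 ± 0.05 in SBN/y (adjusted p 0.00629 and 0.0320 in limma). In SBN/y the size held at 0.20 to 0.24 with any single array left out, but the adjusted p passed 0.05 in 9 of 28 such fits, reaching 0.0832, and was 0.116 when the SBN/y groups were fitted alone. The 9 fits lacked SBN/y replicate 1, 2, 3, 6 or 7 with 1 kidney, or replicate 1, 3, 4 or 5 with 2 kidneys.

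**Figure D2:**
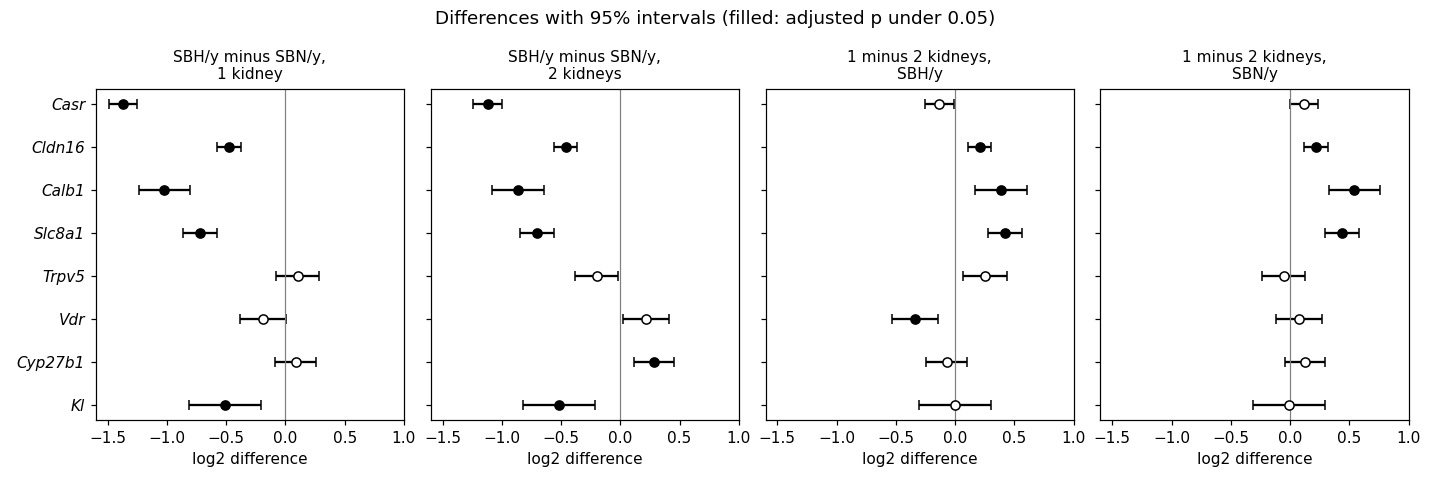
Log2 difference of each gene in 4 comparisons, with 95% intervals from limma and 7 arrays per group; filled points have an adjusted p below 0.05. Casr, Cldn16, Calb1, Slc8a1 and Kl lie below 0 in both strain comparisons, and Cldn16, Calb1 and Slc8a1 lie above 0 in both uninephrectomy comparisons.

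Vdr was the gene that fell. In SBH/y its lowest, median and highest values were 6.19, 6.48 and 6.77 with 1 kidney, against 6.49, 6.74 and 7.14 with 2 kidneys, with 4 of 7 arrays below all of the 2-kidney group. The log2 difference was -0.34 ± 0.10, a change of -20.9% on the linear scale (adjusted p 0.0227 in limma). The call was lost without SBH/y replicate 1, 5 or 6 with 1 kidney or without replicate 3 with 2 kidneys, with differences of -0.32 to -0.28 in these 4 fits and an adjusted p of up to 0.0704. In SBN/y, Vdr lay at 6.44 to 6.81 with 1 kidney, against 6.29 to 6.87 with 2 kidneys, a difference of 0.07 ± 0.10 that was not called. In the same SBH/y kidneys the tubular injury marker Havcr1 averaged 7.53 with 1 kidney, against 4.74 with 2 kidneys, and 3 of 6 injury markers rose. Their mean lay at 8.07 to 8.73 with 1 kidney, against 7.52 to 7.72 with 2 kidneys. Podocyte markers fell in 5 of 5, with a mean of 7.41 to 7.89 with 1 kidney, against 8.04 to 8.14 with 2 kidneys, and 2 of 6 macrophage markers rose. Of all named genes, 10.4% were called after uninephrectomy in SBH/y and 0.605% in SBN/y. In SBN/y 0 of the injury, podocyte and macrophage markers were called after uninephrectomy. The part of these cells in the SBH/y values was not tested. The strain and uninephrectomy comparisons share arrays, since each group enters both.

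The remaining genes were not called for kidney number in either strain in the fit to all arrays. Casr differed by -0.14 ± 0.06 in SBH/y (adjusted p 0.175 in limma), with 7 of 7 arrays below the 2-kidney median, and 0.12 ± 0.06 in SBN/y (adjusted p 0.608). Kl differed by -0.00 ± 0.15 in SBH/y, with a 95% interval of -0.31 to 0.30, and in SBN/y by -0.01 ± 0.15, with an interval of -0.31 to 0.29. These intervals give the changes of Kl compatible with 7 arrays a group and are not a limit of detection. The missing calls do not show that Kl was unchanged. Trpv5 differed by 0.25 ± 0.09 in SBH/y (adjusted p 0.0804 in limma), with 7 of 7 arrays above the 2-kidney median of 5.25, and in SBN/y by -0.05 ± 0.09. The SBH/y value of Trpv5 passed the threshold in limma with array weights (adjusted p 0.0493), with the mean of its probe sets (adjusted p 0.0487) and without SBH/y replicate 7 with 2 kidneys (adjusted p 0.0391). Cyp27b1 differed by -0.07 ± 0.08 in SBH/y and in SBN/y by 0.12 ± 0.08.

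Whether the response differed between the strains was tested by subtracting the SBN/y response to uninephrectomy from the SBH/y response. Of the 8 genes 0 were called in limma, where 1.41% of all probe sets were, and 3 had an unadjusted p below 0.05. For Slc8a1 the difference of the rises was -0.02, with a 95% interval of -0.22 to 0.19, for Cldn16 it was -0.01 (-0.15 to 0.13) and for Calb1 -0.16 (-0.47 to 0.15). The 3 genes with an unadjusted p below 0.05 were Vdr at -0.41 ± 0.13, Casr at -0.25 ± 0.08 and Trpv5 at 0.31 ± 0.13, with adjusted p of 0.141, 0.149 and 0.295 in limma. Vdr passed the threshold without SBH/y replicate 2 with 1 kidney (adjusted p 0.0479).

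The levels therefore had the same order for Calb1, Slc8a1 and Cldn16: SBN/y with 1 kidney was highest, SBN/y with 2 kidneys next, then SBH/y with 1 kidney, and SBH/y with 2 kidneys lowest. Between the middle neighbours, Calb1 averaged 11.28 ± 0.15 in SBH/y with 1 kidney and 11.76 ± 0.32 in SBN/y with 2 kidneys (SD, n = 7 each), with overlapping ranges. Slc8a1 averaged 8.89 ± 0.11 and 9.17 ± 0.11 in the same groups, which overlapped through SBH/y replicate 2 at 9.12. Cldn16 averaged 7.25 ± 0.08 and 7.51 ± 0.09 in these groups, with the highest SBH/y array at 7.36 and the lowest SBN/y array at 7.42. For Casr and Kl the strain set the order, and the 1-kidney and 2-kidney groups of a strain overlapped.

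Within groups, after each group's mean was taken out, Calb1 and Slc8a1 had r = 0.46 (rho = 0.58) over the 28 arrays, and r = 0.68 without the 2 arrays farthest from the median of Calb1. With the dimmer Slc8a1 probe set Calb1 had r = 0.10. Slc8a1 and Cldn16 had r = 0.39 (rho = 0.38), while Calb1 and Cldn16 had r = -0.04 (rho = 0.08). Casr and Kl ran in opposite directions, with r = -0.61 (rho = -0.60), which came to -0.38 without the 2 arrays farthest from the median of Casr, among them SBN/y replicate 5 with 1 kidney. The 2 probe sets of Slc8a1 had r = 0.30, and those of Trpv5 had r = -0.29. These are descriptions of arrays that share a normalization, computed for all 28 pairs of the 8 genes.

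Over 14216 other named genes, the one whose within-group pattern was most like Kl was Slc5a1, the sodium-glucose cotransporter of the late proximal tubule, with r = 0.82 (rho = 0.79) over 28 arrays and r = 0.75 without the 2 arrays farthest from the median of Kl. The array with the highest Kl, SBN/y replicate 5 with 1 kidney, also had the highest Slc5a1 of its group, at 7.12. Tmem30a and Ro60 followed at 0.78 and 0.76. For Calb1 the closest were Slc13a3, a dicarboxylate transporter of the proximal tubule, at 0.80 (0.64 without 2 arrays), Ces2c at 0.76 and Aldh1l1 at 0.76. For Slc8a1 they were Aif1l at 0.69, Mks1 at 0.65 and the aldose reductase Akr1b1 at 0.64, for Cldn16 Etnk1 at 0.69, and for Casr Wbp1 at 0.74. Vdr was closest to Colgalt2 at 0.71, Cyp27b1 to MAST1 at 0.71 and Trpv5 to Slc8a3, a sodium-calcium exchanger, at 0.70. Each is the highest of 14216 correlations, and the arrays share 1 normalization.

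**Figure D3:**
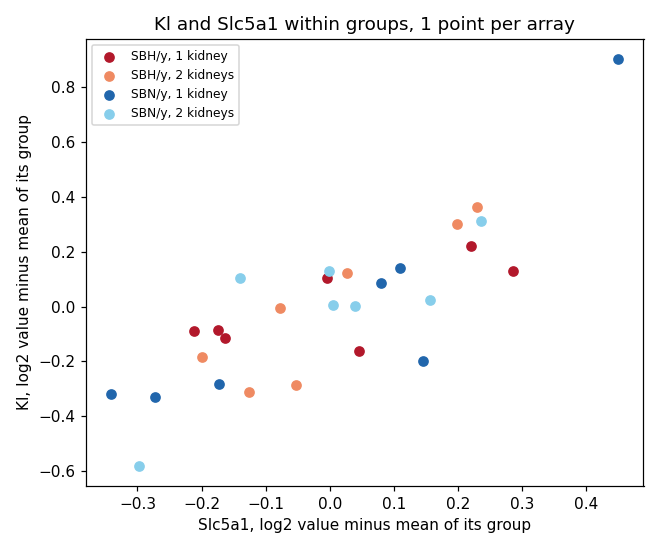
Deviation of Kl (vertical) and of Slc5a1 (horizontal) from the mean of their group, in log2 units, 1 point per array. The points rise together, with r = 0.82 over 28 arrays, and the SBN/y array with 1 kidney at the upper right is replicate 5.

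Other genes of the same physiology were read from 5 lists, each gene by its brightest probe set. The lists too were chosen with earlier results of these data known. All thick ascending limb markers given above are also in the thick ascending limb list, and all distal markers in the distal list. The counts of these 2 lists are thus not separate from the marker counts. Among 12 measured genes of paracellular and salt transport in the thick ascending limb, 8 were lower and 1 higher in SBH/y with 1 kidney, and 4 were lower and 0 higher with 2 kidneys. The median log2 difference was -0.20 and -0.15, against 0.00 and -0.01 over all named genes, of which 26.8% and 21.5% were called. Ppp1r1a, a protein phosphatase inhibitor, differed by -0.70 ± 0.05 with 1 kidney and -0.52 ± 0.05 with 2 kidneys, and the prostaglandin E2 receptor Ptger3 by -0.71 ± 0.08 and -0.46 ± 0.08. The potassium channel Kcnj1 differed by -0.59 ± 0.10 and Bsnd, the chloride channel subunit barttin, by -0.36 ± 0.07 with 1 kidney. With 2 kidneys these 2 genes differed by -0.15 ± 0.10 and -0.12 ± 0.07, neither called. Cldn10, the claudin of the sodium pathway, differed by -0.11 ± 0.04 with 1 kidney and -0.15 ± 0.04 with 2 kidneys. The cotransporter Slc12a1 differed by -0.24 ± 0.05 and -0.16 ± 0.05, and these differences were all called. After uninephrectomy 1 of the 12 fell and 0 rose in SBH/y (Bsnd, -0.23 ± 0.07), where 10.4% of all named genes were called. In SBN/y 0 of the 12 were called, where 0.605% of all named genes were.

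The list for distal calcium and magnesium transport had 21 measured genes. With 1 kidney SBH/y had 9 lower and 2 higher, and with 2 kidneys 6 lower and 1 higher, where 26.8% and 21.5% of all named genes were called. The list's median log2 difference was -0.13 and -0.07. Tissue kallikrein, Klk1, a protease that in mice supports Trpv5 at the cell surface, differed by -0.73 ± 0.06 with 1 kidney. With 2 kidneys Klk1 differed by -0.24 ± 0.06, also called. The kinase Stk39 differed by -0.50 ± 0.05 with 1 kidney and -0.24 ± 0.05 with 2 kidneys, and its regulator Wnk1 by -0.26 ± 0.04 and -0.23 ± 0.04. Tmem72 differed by -0.51 ± 0.06 with 1 kidney and -0.24 ± 0.06 with 2 kidneys, both called. The sodium pump subunit Fxyd2 differed by -0.16 ± 0.04 with 1 kidney and -0.17 ± 0.04 with 2 kidneys. For the potassium channel Kcnj16 the differences were -0.29 ± 0.05 and -0.22 ± 0.05, all of them called. In SBH/y uninephrectomy was followed by a rise of Slc12a3 by 0.26 ± 0.08 and of Wnk1 by 0.14 ± 0.04, and by a fall of Klk1 (-0.31 ± 0.06) and Cnnm4 (-0.17 ± 0.05), so 2 rose and 2 fell, where 10.4% of all named genes were called. In SBN/y 0 of 21 were called, where 0.605% of all named genes were. There Wnk1 differed by 0.17 ± 0.04 and Slc12a3 by 0.17 ± 0.08, neither called (adjusted p 0.0736 and 0.552 in limma). Averaged over the strains both rose, by 0.15 ± 0.03 and 0.21 ± 0.06 (adjusted p 0.00134 and 0.0202 in limma). Klk1 was the 1 gene of this list with a called difference between the strains in the response, at -0.49 ± 0.08 (adjusted p 0.00157 in limma). Calcium binding protein S100g and channel Trpv6, which serve the same route as Calb1 and Trpv5, had means of 5.08 to 5.50 and 5.79 to 5.96 in the 4 groups, near or below the array medians. S100g was lower in SBH/y with 1 kidney (-0.32 ± 0.10, adjusted p 0.0233 in limma), and after uninephrectomy in SBH/y it differed by -0.28 ± 0.10, not called and opposite in sign to Calb1.

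Among 18 measured genes of FGF23, Klotho and phosphate handling, 4 were higher and 2 lower in SBH/y with 1 kidney, and 3 were higher and 1 lower with 2 kidneys. Slc34a2, a sodium-phosphate cotransporter, was higher in SBH/y by 1.17 ± 0.10 with 1 kidney and by 0.57 ± 0.10 with 2 kidneys, and its rise after uninephrectomy in SBH/y, 0.70 ± 0.10, exceeded that in SBN/y by 0.60 ± 0.15 (adjusted p 0.0289 in limma). The stanniocalcin Stc2, a secreted glycoprotein, was higher in SBH/y by 0.66 ± 0.13 and 0.87 ± 0.13. These 6 and 4 of 18 genes stand beside 26.8% and 21.5% of all named genes called, shares near those of the list, and the list's median was 0.04 and 0.05. After uninephrectomy 2 of the 18 rose and 4 fell in SBH/y, and 0 rose and 2 fell in SBN/y. Of all named genes, 10.4% were called after uninephrectomy in SBH/y and 0.605% in SBN/y. The proximal phosphate cotransporter Slc34a3 averaged 9.84 with 1 kidney, against 10.20 with 2 kidneys, in SBH/y, and 9.62 against 10.02 in SBN/y. It thus fell in both strains, with log2 differences of -0.36 ± 0.07 and -0.41 ± 0.07 (adjusted p 0.00141 and 0.00786 in limma). Stc2 fell too, with -0.81 ± 0.13 in SBH/y and -0.59 ± 0.13 in SBN/y (adjusted p 0.000142 and 0.0320 in limma), and Stc1 by an average over the strains of -0.71 ± 0.15 (adjusted p 0.00262 in limma). In SBH/y the receptor Fgfr2 fell (-0.31 ± 0.06) and Galnt3, the enzyme that glycosylates FGF23, rose (0.31 ± 0.06), and a difference from SBN/y was not called for either.

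Of 12 measured genes of vitamin D and parathyroid hormone signalling, 2 were higher and 2 lower in SBH/y with 1 kidney, and 0 were higher and 2 lower with 2 kidneys. The parathyroid hormone receptor Pth1r differed by -0.29 ± 0.05 and -0.21 ± 0.05, and the vitamin D binding protein gene Gc, with a low mean of 4.70 to 5.53 in the groups, by -0.65 ± 0.14 and -0.66 ± 0.14. With 1 kidney the endocytic genes Amn and Cubn, which help take up vitamin D bound to its carrier, were higher by 0.21 ± 0.06 and 0.12 ± 0.04. These 4 and 2 of 12 genes stand beside the same 26.8% and 21.5% of all named genes, and the list's median was -0.01 and 0.00. After uninephrectomy 0 of the 12 were called in either strain, where 10.4% of all named genes were called in SBH/y and 0.605% in SBN/y. Of 11 measured calcium store and calmodulin genes, 1 was higher and 2 lower in SBH/y with 1 kidney, and 2 were higher and 0 lower with 2 kidneys, with S100a1 higher by 0.21 ± 0.05 and 0.35 ± 0.05. These 3 and 2 of 11 genes are also near the share of all named genes called, 26.8% and 21.5%. The smallest p with 1 kidney was that of Calm2, a calmodulin gene, which was lower in SBH/y (-0.25 ± 0.04, adjusted p 1.93e-05 in limma). With 2 kidneys Calm2 differed by -0.10 ± 0.04, not called. After uninephrectomy in SBH/y, 1 of the 11 rose and 2 fell, where 10.4% of all named genes were called. The calcium pump Atp2a2 differed by 0.15 ± 0.04 and the inositol trisphosphate receptor Itpr1 by -0.22 ± 0.04. Itpr1 had a called difference between the strains in the response (-0.28 ± 0.06, adjusted p 0.0142 in limma), and its strain difference was -0.15 ± 0.04 with 1 kidney and 0.13 ± 0.04 with 2 kidneys, both called. In SBN/y 0 of the 11 were called, where 0.605% of all named genes were. Averaged over the strains, 2 of the 11 rose and 1 fell, where 7.88% of all named genes were called. Atp2a2 was among those that rose, by 0.10 ± 0.03 (adjusted p 0.0169 in limma).

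**Figure D4:**
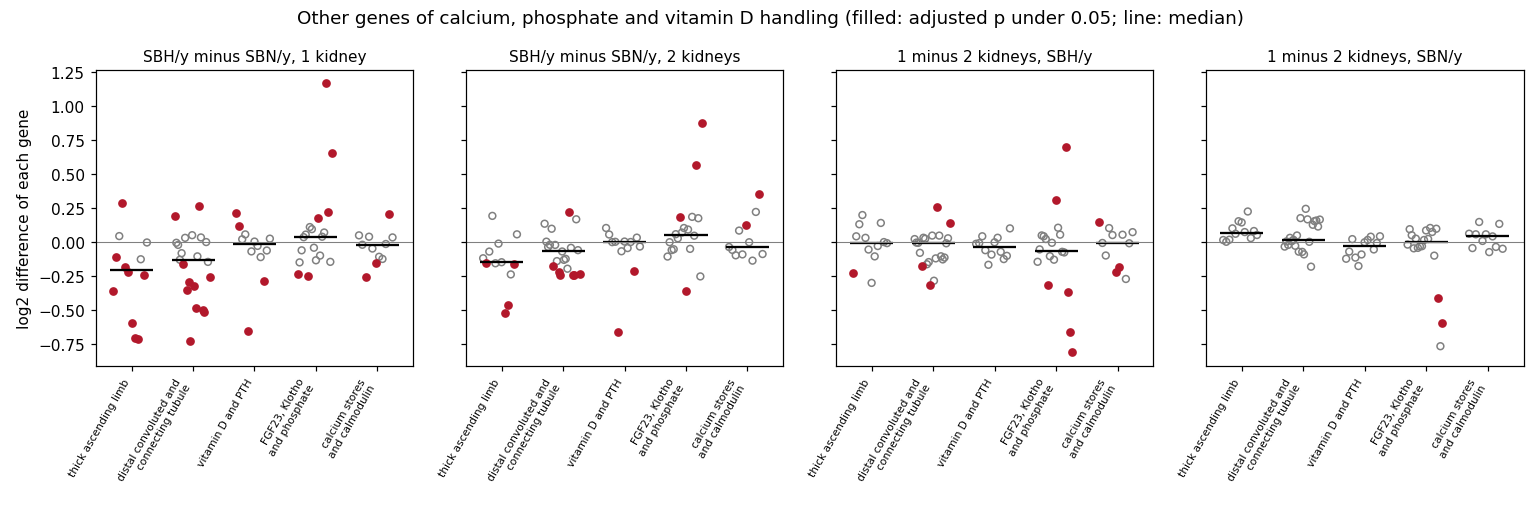
Log2 difference of each measured gene of the 5 lists in 4 comparisons, with the list's median as a line; filled points have an adjusted p below 0.05. Points of the thick ascending limb list lie mostly below 0 in the strain comparisons, and in SBN/y the 2 filled points after uninephrectomy are Slc34a3 and Stc2.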

How the data were processed

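RNA of 28 kidney samples was hybridised to 1-colour Affymetrix arrays, 1 per sample. Per the submitters' processing notes the authors used GCOS and RMA, with no version or probe set definition given in the sources used here. The authors deposited log2 values per probe set. RMA equalizes the arrays' distributions, so a change in total RNA cannot be seen, and the number of arrays limits the precision. Scanner files were not used here, so detection was not checked.

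Of 31099 probe sets, 57 controls were left out. The platform annotation gave 1 symbol to 20826 of the others, several to 436 and none to 9780, and 20758 symbols were updated through gene identifiers in RefSeq's table for GRCr8. Promoters came from RefSeq (GRCr8). The members and lists were chosen with earlier results of these data known. A gene was read by its probe set with the highest mean.

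With limma 3.58.1 in R 4.3.3, 1 mean per group was fitted to all 28 arrays (lmFit, eBayes), for 6 contrasts, with Benjamini-Hochberg adjustment over 31042 probe sets. Values after ± are SE for differences and SD for group means. All members were named. Other named genes were drawn from up to 4 called genes per list and contrast with the smallest p. They were also drawn from the 3 genes most alike each member within groups. Not every gene that met these rules is printed. Cldn19, Trpv6 and S100g were named beside these. The fit was tested on simulated data with 200 of 31042 probe sets changed. The simulated noise was independent between arrays and probe sets, whereas some arrays here share deviations, so the results may not carry over. For the strain difference with 2 kidneys the fit recovered 94% of shifts of 0.5 and 100% of shifts of 1, with 18 false calls. For the uninephrectomy effect in SBH/y it recovered 97% of shifts of 0.5 and 100% of shifts of 1, with 14 false calls, and for the interaction 79% and 100%, with 7. Alternatives were other normalizations, a filter on dim probe sets, other variance models, array weights, separate fits, a replicate block, means over probe sets, and each array left out.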

Additional observations from a re-analysis of the deposited data

Results flagged for a closer look

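In 5 of 40 cases of a probe set in a group, a single array lay apart from the other 6 by more than 0.568 of the group's range, which chance gives in about 1 of 20 groups. Kl stood at 8.31 in SBN/y replicate 5 with 1 kidney, the next array being at 7.55, and at 6.84 in SBN/y replicate 1 with 2 kidneys, the next being at 7.42. Slc8a1 was 9.12 in SBH/y replicate 2 with 1 kidney, above the next at 8.88. Casr was 7.35 in SBH/y replicate 4 with 2 kidneys, below the next at 7.50. The dim Trpv5 probe set was 3.97 in SBN/y replicate 7 with 1 kidney, above the next at 3.72. The strain calls of Kl held without any single array, with log2 differences of -0.56 to -0.36 with 1 kidney and -0.61 to -0.46 with 2 kidneys. For the 8 genes no difference between the strains in the response to uninephrectomy passed the threshold.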

How the results depend on the processing

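Across 8 other settings and 28 fits that each left out 1 array, 2023 of 2122 recomputed log2 differences of the member probe sets kept their direction and their side of the threshold, 17 lost and 6 gained a call, and 76 changed sign, all of them not called. The number of member genes called stayed within 1.5 times in every comparison, except that the interaction had 0 to 1 called with 1 array left out (1, Vdr, without SBH/y replicate 2 with 1 kidney). Beside the losses given above, Trpv5 after uninephrectomy in SBH/y gained a call with array weights (0.27), with the replicate block (0.25), with means over probe sets (0.15) and without SBH/y replicate 7 with 2 kidneys, and its strain difference with 2 kidneys did so with means over probe sets (-0.14, adjusted p 0.0378 in limma).

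Sign changes were confined to values near 0. Under quantile normalization they were Kl after uninephrectomy in SBH/y (0.027) and averaged (0.013), Cldn16 in the interaction (0.002) and Casr averaged (0.002). Under median centring they were Kl in SBH/y (0.007) and averaged (0.001), and with array weights Casr averaged (0.003). With 1 array left out, Kl ranged from -0.055 to 0.057 in SBH/y, -0.161 to 0.044 in SBN/y, -0.048 to 0.158 in the interaction and -0.082 to 0.023 averaged. In the interaction Cldn16 ranged from -0.037 to 0.010, Slc8a1 from -0.067 to 0.011 and its dimmer probe set from -0.079 to 0.083. Averaged over strains, Casr ranged from -0.027 to 0.011, Cyp27b1 from -0.004 to 0.051 and the dimmer Trpv5 probe set from -0.001 to 0.042. That probe set ranged from -0.058 to 0.021 between strains with 1 kidney and from -0.051 to 0.015 after uninephrectomy in SBN/y.

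Groups share replicate numbers, which the labels do not tie to a batch or day. Same-numbered samples had correlated deviations above 0.1 in 24 of 42 pairs (r from -0.095 to 0.586, median 0.16), and in 6 of 6 pairs for replicate 6 and for replicate 7. The best match in another group had the same number in 35 of 84 cases. With 7 arrays a group, about 1 of 7 cases would match in number by chance. What same-numbered samples share is not in the labels and was not tested. The main fit left the numbers out because the labels give no batch, so its p-values do not take them into account. With the replicate block, 5 of 8 members were called after uninephrectomy in SBH/y in place of 4, and no other member call changed. Over all probe sets the block gave 280 calls after uninephrectomy in SBN/y, against 144, and 812 in the interaction, against 439. Array weights gave 225 and 899, separate fits 60 in SBN/y, and single arrays left out 62 to 167 in SBN/y (62 to 95 without SBN/y replicate 2, 3, 4, 5 or 7 with 1 kidney or replicate 3 or 5 with 2 kidneys) and 306 to 870 in the interaction. Fitted on 14217 gene means, the calls were 4050 and 3269 between strains with 1 and 2 kidneys, against 6663 and 5570 probe sets, and 1345 averaged, against 2025.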
